A study of Mus musculus with 12 samples.

Results

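Interferon signalling depends on a small set of proteins at the cell surface and just behind it, and 8 mouse genes that encode them were measured here in leukemia cells grown in 3 kinds of host. They comprise the receptor chains for interferon gamma (Ifngr1 and Ifngr2) and for type I interferons (Ifnar1 and Ifnar2), the transcription factors Irf1 and Irf2, and the inhibitors Socs1 and Ptpn2. The genes were listed by name, with earlier results of these data known, and each was found once among the 55401 genes of the expression table. The question put to them was whether leukemia cells from hosts with different immune cells differ in signs of interferon exposure or in the parts needed to sense it.

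The leukemia cells were mouse bone marrow progenitors transformed with MLL-AF9, a fusion oncogene delivered together with GFP, and had been passed from mouse to mouse more than 10 times. They were transplanted into wild-type C57BL/6 (WT) mice, into Rag2-/- mice, which lack mature T and B cells but keep NK cells, and into NSG mice, which lack T, B and NK cells. All 3 groups received the same untreated MLL-AF9 cells, so the genotype belongs to the host and not to the cells sequenced. RNA came from GFP+ cells of the bone marrow of moribund female mice, with animals aged 8 to 12 weeks in the experiments, and 4 biological replicates were sequenced for each host. A single line of serially transplanted cells was used, so the libraries do not sample other leukemias.

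Interferon gamma binds IFNGR1, and IFNGR2 joins it to bring in the kinases JAK1 and JAK2, whereas type I interferons use IFNAR1 and IFNAR2 with TYK2 and JAK1. The kinases pass the signal on to transcription factors, which switch on target genes through short DNA elements: the gamma-activated site (GAS) serves interferon gamma, and complexes with IRF9 bind the interferon-stimulated response element (ISRE). IRF1 is itself induced by interferon gamma and activates many of the same targets, IRF2 can compete with it at shared elements, SOCS1 blocks the JAK kinases, and PTPN2 removes phosphate from JAK1.

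Of the 8 genes, 7 had a promoter sequence in RefSeq (8 promoters, mouse build GRCm38.p6), and Ptpn2 had none. The letters TTCNNNGAA (GAS) and GAAA followed, after any 2 bases, by another GAAA (ISRE) were searched on both strands in the 250 bases before each start. GAS letters were present in 3 of the 8 promoters, those of Ifnar2, Irf1 and Irf2, and in 7.02% of 32851 mouse promoters. ISRE letters were present in 2, those of Irf2 and Socs1, and in 2.98% of the same promoters. The 4 stretches that hold them are shown 5′ to 3′ along the gene, with the matching letters in capitals, because GAS and ISRE are the elements through which the pathway acts on its targets.
Ifnar2, chr16:91372539-91372607, plus strand: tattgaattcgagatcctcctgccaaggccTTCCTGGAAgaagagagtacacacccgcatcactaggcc
Irf1, chr11:53769894-53769962, plus strand: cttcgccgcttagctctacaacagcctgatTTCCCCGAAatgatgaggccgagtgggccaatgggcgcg
Irf2, chr8:46739495-46739559, plus strand: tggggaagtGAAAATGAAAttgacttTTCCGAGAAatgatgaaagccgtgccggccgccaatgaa
Socs1, chr16:10785574-10785649, minus strand: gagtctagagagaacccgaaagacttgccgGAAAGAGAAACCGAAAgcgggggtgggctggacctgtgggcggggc
In Irf2 the capitals mark an ISRE match that begins 241 bases before the start and a GAS match that begins 224 bases before it. In Socs1 they mark a pair of overlapping ISRE matches that begin 83 and 77 bases before the start. The GAS match of Irf1 begins 90 bases and that of Ifnar2 214 bases before the start. A match of letters is a description and no measurement of binding.

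The libraries held 16.0 to 42.8 reads in units of 1000000, estimated from the spacing of the low TPM values, an abundance that corrects for gene length and sums to the same total in every library. All 8 markers checked for the leukemia (among them Ptprc, Kit, Hoxa9 and Mpo) averaged 1 TPM or more, and Mpo, a granule enzyme, was called lower in Rag2-/- than in WT libraries (145.0 against 553.0 TPM on average; limma adjusted p = 0.0189). Of 14 T and NK cell markers, 2 (Cd3e and Trac) were at 0 in all 12 libraries and 1 averaged 1 TPM or more, and their sum was 5.68 to 8.55 TPM in WT, 5.71 to 13.3 TPM in Rag2-/- and 2.81 to 8.81 TPM in NSG libraries. The summed level of 11 neutrophil markers was 209.8 to 337.2 TPM in WT, 684.7 to 2146.1 TPM in Rag2-/- and 326.5 to 356.8 TPM in NSG libraries. Rag2-/- replicate 4 was the lowest of its host in these markers, with the other 3 at 1899.4 TPM or more. The 10 macrophage markers summed to 103.2 to 110.4, 111.1 to 129.3 and 66.6 to 121.4 TPM in the 3 hosts in that order, with C1qc called higher in Rag2-/- than in WT (4.07 against 1.12 TPM; limma adjusted p = 0.0251). The 7 B cell markers summed to 181.2 to 233.4, 139.7 to 210.5 and 125.5 to 221.5 TPM, with the light chain gene Igkc called lower in Rag2-/- than in WT (0.0738 against 9.38 TPM; limma adjusted p = 0.0348). The source of this marker RNA, other cells or the leukemia cells themselves, was not tested, nor was its part in the levels below. The axis along which the deviations from host means varied most (first principal component) held 18.3% of their variance. On it NSG replicate 3 lay farthest out, at -0.697. Differences were fitted on log2(TPM + 1) with limma, a linear model across genes, for the 15026 genes that averaged 1 TPM or more. A gene was called at a Benjamini-Hochberg adjusted p below 0.05 and a log2 fold change beyond 0.5, and p-values measure the spread between these libraries. The 3 comparisons share libraries and are not independent of each other.

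Every one of the 8 genes was expressed in every library, and their levels spanned a wide range. Ifngr1 was the most abundant at 692.9 TPM on average over the 12 libraries, ahead of 98.8% of the genes tested. Ifnar2 averaged 121.7 TPM, Ifnar1 82.6 TPM and Ptpn2 74.5 TPM. Irf1 at 54.2 TPM and Ifngr2 at 53.5 TPM could not be ordered, since their ranges over libraries overlapped, and the same held for Ifnar1 and Ptpn2. Irf2 averaged 22.4 TPM, and Socs1 was the lowest at 6.37 TPM. The ligand-binding chain of the interferon gamma receptor was thus present at over 10 times the TPM of its partner chain in each library, with ratios from 10.4 to 16.1.

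**Figure D1:**
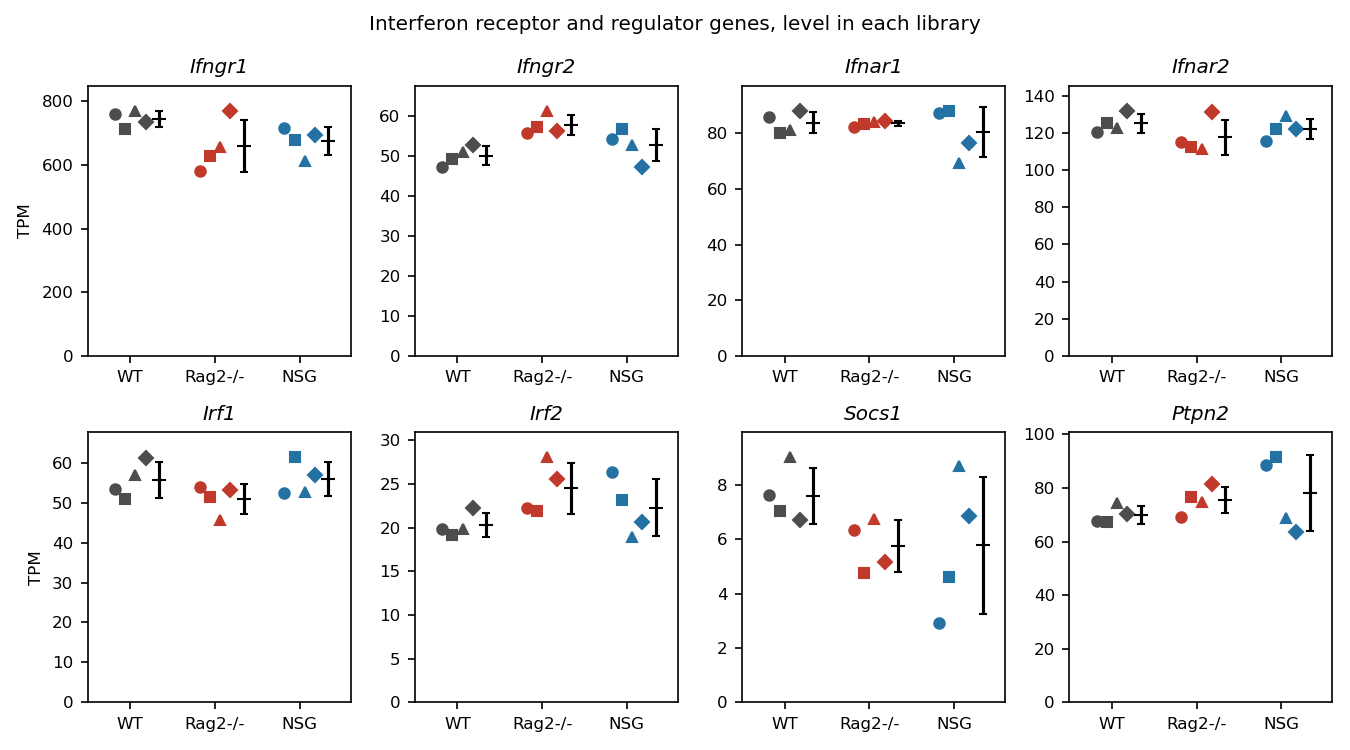
Level of each of the 8 genes in TPM (vertical axes, from 0) in the 4 libraries of each host; circle, square, triangle and diamond stand for replicates 1 to 4, and the bars give mean ± SD. The hosts overlap in every panel except for Ifngr2, whose 4 Rag2-/- libraries (55.8 to 61.3 TPM) lie above the 4 WT libraries (47.2 to 52.8 TPM).

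None of the 8 genes was called between any pair of hosts. Between Rag2-/- and WT the number called was 0 of 8 (background 1.47% of the genes tested), with 3 of 8 at an unadjusted p below 0.05 in limma (background 20.9%). Between Rag2-/- and NSG it was 0 of 8 (background 0.213%), and between NSG and WT 0 of 8 (background 0.0%), with 0 of 8 at an unadjusted p below 0.05 in each (backgrounds 12.6% and 9.16%). The count stayed at 0 in all 3 comparisons with voom on reads recovered from the TPM values. A moderated F test of the 3 hosts together called 0 of 8, against 1.1% of all genes, and its lowest adjusted p among them was 0.204, for Ifngr2. The median log2 fold change of the 8 genes was -0.05 for Rag2-/- against WT, 0.01 for Rag2-/- against NSG and -0.01 for NSG against WT, beside 0.024, 0.013 and 0.005 over all genes tested.

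The intervals show how large a difference these data leave room for. In each comparison, 7 of the 8 genes had a 95% interval of the log2 fold change that lay wholly between -0.5 and 0.5, the limit used for a call. Socs1 was the exception, with intervals from -0.87 to 0.17 for Rag2-/- against WT, from -0.45 to 0.59 for Rag2-/- against NSG and from -0.94 to 0.10 for NSG against WT. It was also the gene with the fewest reads, 47 to 205 per library, while the other 7 had at least 682.

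**Figure D2:**
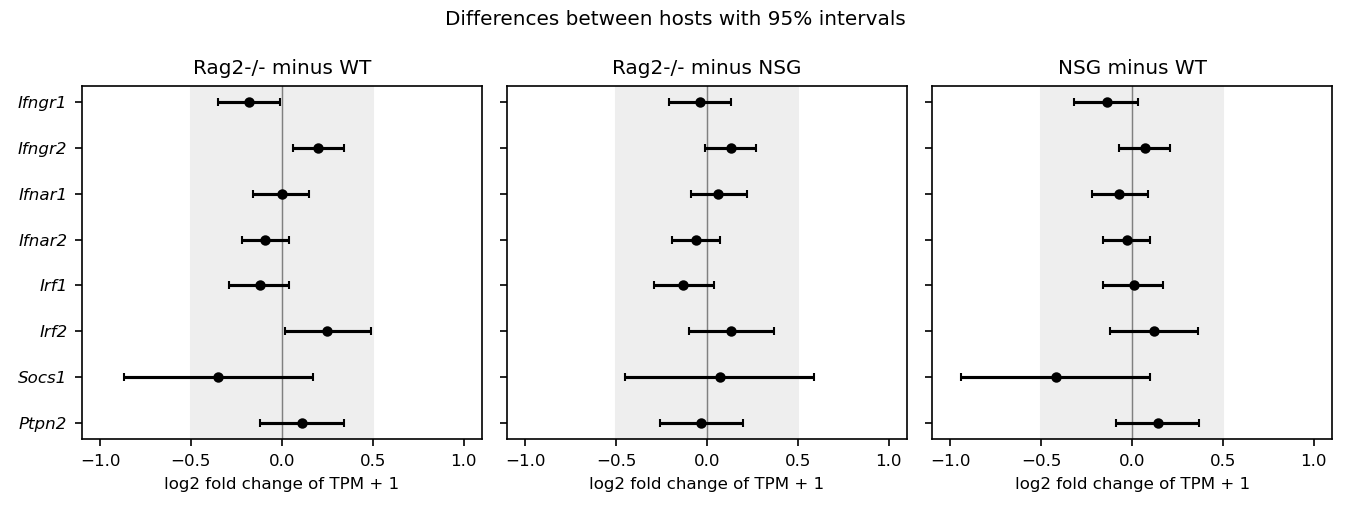
Difference between hosts for each gene as log2 fold change of TPM + 1 (horizontal axes), with points for the limma estimate, bars for the 95% interval and a grey band between -0.5 and 0.5. All intervals except those of Socs1 lie inside the band, and those of Ifngr1, Ifngr2 and Irf2 for Rag2-/- minus WT do not reach 0, although none of the 3 has an adjusted p below 0.05.

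The chains of the interferon gamma receptor leaned in opposite directions in cells from Rag2-/- mice. Ifngr1 measured 758.7, 713.0, 769.9 and 736.1 TPM in the WT libraries, 580.9, 629.2, 657.2 and 770.7 TPM in the Rag2-/- libraries and 716.4, 677.5, 611.3 and 694.1 TPM in the NSG libraries (replicates 1 to 4). Of the Rag2-/- libraries, 3 lay below every WT library and the other one above them all, so the groups overlapped. The log2 fold change against WT was -0.18 ± 0.08 (SE, n = 4 per host; limma adjusted p = 0.217), which is 0.882 times the WT level, with an interval from 0.782 to 0.994. Without Rag2-/- replicate 4 it was -0.26, with a limma adjusted p of 0.0611. That replicate, which had the highest Ifngr1, was also the one with the lowest neutrophil markers of its host, and the part of these markers in the Ifngr1 level was not tested. In bulk RNA such as this, fewer cells that express a gene and less of its RNA per cell cannot be told apart.

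Ifngr2, the chain that recruits JAK2, measured 47.2, 49.1, 51.0 and 52.8 TPM in the WT libraries, 55.8, 57.3, 61.3 and 56.2 TPM in the Rag2-/- libraries and 54.1, 56.7, 52.7 and 47.3 TPM in the NSG libraries. All 4 Rag2-/- libraries were above all 4 WT libraries. It was the only one of the 8 genes without overlap in that comparison (1 of 8, background 16.9%), and none of the 8 was without overlap in the others (backgrounds 6.59% and 4.59%). Against WT the log2 fold change was 0.20 ± 0.06 (SE; limma adjusted p = 0.1), a 1.15-fold difference with an interval from 1.04 to 1.27. Against NSG it was 0.13 ± 0.06 (SE; limma adjusted p = 0.437), and the NSG libraries overlapped both other hosts.

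Set against each other within a library, the receptor chains gave ratios that did not overlap between Rag2-/- and WT. This ratio and the others below were chosen after the values had been seen. They combine the values of the single genes and are no separate support. The TPM ratio of Ifngr1 to Ifngr2 was 16.1, 14.5, 15.1 and 14.0 in the WT libraries, 10.4, 11, 10.7 and 13.7 in the Rag2-/- libraries and 13.2, 11.9, 11.6 and 14.7 in the NSG libraries. Means were 14.9 ± 0.905 in WT, 11.5 ± 1.53 in Rag2-/- and 12.9 ± 1.40 in NSG (SD, n = 4 each). The difference between Rag2-/- and WT was -0.39 on the log2 scale, and the exact two-sided permutation p was 0.0286, the smallest that 4 against 4 libraries can give. After adjustment over the 9 ratio tests it was 0.129 and did not pass. A p at that floor can pass only if most of the 9 tests reach it, so the adjusted value cannot decide. Leaving out any single library kept the difference between -0.48 and -0.34.

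The type I receptor chains differed less. Ifnar1 measured 85.9, 80.3, 81.3 and 88.0 TPM in WT, 82.3, 83.2, 84.2 and 84.5 TPM in Rag2-/- and 87.4, 88.2, 69.3 and 76.6 TPM in NSG libraries. The Rag2-/- values all fell inside the WT range, and the widest spread was within NSG. Its log2 fold change was -0.00451 for Rag2-/- against WT, with an interval from -0.16 to 0.15 (limma adjusted p = 0.979), which leaves room for 0.895 to 1.11 times the WT level. Against NSG it was 0.06 ± 0.07 (SE; limma adjusted p = 0.786).

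Ifnar2, the chain with the higher affinity for type I interferons, measured 120.3, 125.6, 122.7 and 132.1 TPM in WT, 115.1, 112.3, 111.5 and 131.5 TPM in Rag2-/- and 115.8, 121.9, 129.1 and 122.1 TPM in NSG libraries. As with Ifngr1, 3 of the Rag2-/- libraries lay below every WT library and replicate 4 lay among them. The log2 fold change against WT was -0.09 ± 0.06 (SE; limma adjusted p = 0.41). The ratio of Ifnar2 to Ifnar1 was 1.49 ± 0.0686 in WT, 1.41 ± 0.104 in Rag2-/- and 1.54 ± 0.243 in NSG (SD, n = 4 each), and it overlapped between all hosts. Its exact permutation p was 0.171 between Rag2-/- and WT, 0.371 between Rag2-/- and NSG and 0.8 between NSG and WT.

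In the genome, 3 of the 4 receptor genes are neighbours. On mouse chromosome 16 (GRCm38), Ifnar2 (91372783 to 91405589), Ifnar1 (91485238 to 91507441) and Ifngr2 (91547072 to 91565623) lie on the plus strand within 192.8 kb, with Il10rb, a chain of the receptors for interleukin 10 and interferon lambda, between Ifnar2 and Ifnar1. Ifngr1 lies apart on chromosome 10 (19591949 to 19610229). Of the neighbours, Ifnar1 and Ifnar2 had a Pearson r of -0.23 and a Spearman rho of -0.09 over 12 libraries (permutation p = 0.5 and 0.781). Ifngr2 had an r of 0.3 with Ifnar1 and of -0.4 with Ifnar2 (permutation p = 0.358 and 0.193). Ifnar1 and Il10rb had an r of 0.929, named because it was the highest for Ifnar1 among 11100 genes. Both genes were lowest in NSG replicate 3, at 69.3 and 54.8 TPM. In its exons Ifnar2 shares 315 bases with the gene model Gm21970, which was at 0 TPM, and Irf1 shares 135 bases with Gm17334 on the opposite strand, which averaged 2.971 TPM.

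Irf1, a transcription factor that interferon gamma induces strongly, was called in no comparison. It measured 53.4, 51.0, 57 and 61.2 TPM in WT, 54.0, 51.3, 45.7 and 53.2 TPM in Rag2-/- and 52.5, 61.4, 52.6 and 56.8 TPM in NSG libraries. The 3 hosts overlapped, and the lowest library of all was Rag2-/- replicate 3. The log2 fold change was -0.12 ± 0.08 for Rag2-/- against WT (SE; limma adjusted p = 0.392), with an interval from -0.29 to 0.04. Against NSG it was -0.13 ± 0.08 (SE; limma adjusted p = 0.54), with the same upper bound, so a rise beyond 1.03-fold lies outside both intervals.

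Irf2 had its highest mean in Rag2-/- cells, at 24.5 ± 2.91 TPM (SD, n = 4). Its values were 19.9, 19.2, 19.9 and 22.3 TPM in WT, 22.3, 21.9, 28.1 and 25.6 TPM in Rag2-/- and 26.4, 23.2, 18.9 and 20.7 TPM in NSG libraries. Rag2-/- and WT met only at their edges, where WT replicate 4 lay among the lowest Rag2-/- libraries. Against WT it was 0.25 ± 0.11 on the log2 scale (SE; limma adjusted p = 0.212), which is 1.19-fold with an interval from 1.01 to 1.40. Against NSG it was 0.13 ± 0.11 (SE; limma adjusted p = 0.67).

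The balance of Irf1 to Irf2 was nearly fixed in WT, with TPM ratios of 2.69, 2.66, 2.86 and 2.74. It was lower in every Rag2-/- library, at 2.42, 2.34, 1.63 and 2.08, and in the NSG libraries it was 1.99, 2.65, 2.79 and 2.74. Means were 2.74 ± 0.0894, 2.12 ± 0.357 and 2.54 ± 0.371 (SD, n = 4 each). Between Rag2-/- and WT the difference was -0.39 on the log2 scale without overlap (exact permutation p = 0.0286, adjusted over 9 tests 0.129). That p is again the smallest possible, so its adjusted value cannot decide either. The difference stayed between -0.46 and -0.27 with any library left out. NSG replicate 1 also lay below all WT libraries, and NSG and WT overlapped (exact permutation p = 0.429).

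**Figure D3:**
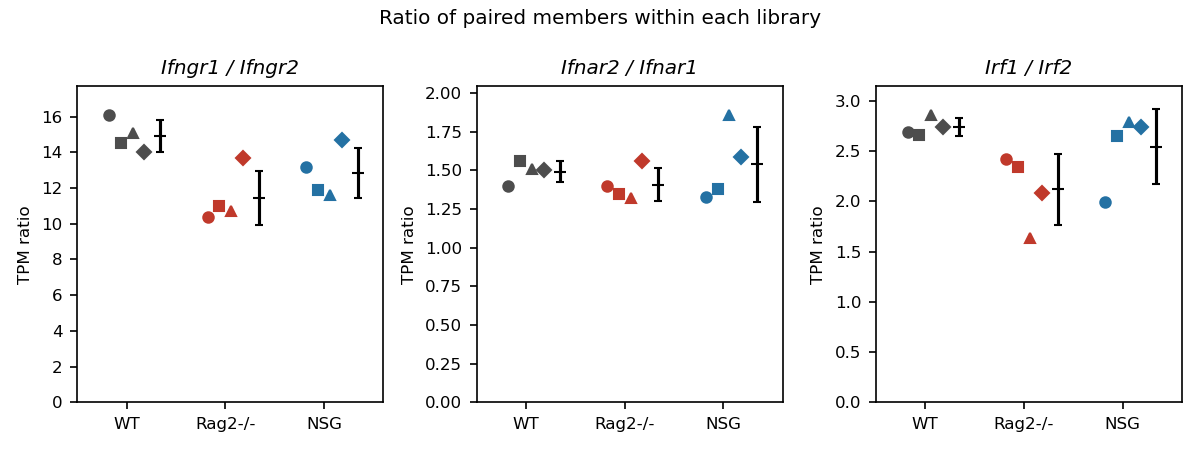
TPM ratio of paired genes within each library (vertical axes, from 0) for Ifngr1 to Ifngr2, Ifnar2 to Ifnar1 and Irf1 to Irf2, by host, with symbols for replicates 1 to 4 and bars for mean ± SD. Rag2-/- libraries lie below all WT libraries in the first panel (10.4 to 13.7 against 14.0 to 16.1) and in the last (1.63 to 2.42 against 2.66 to 2.86).

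Socs1, which interferons induce as a brake on JAK activity, measured 7.63, 7.02, 9.02 and 6.69 TPM in WT, 6.35, 4.75, 6.75 and 5.18 TPM in Rag2-/- and 2.91, 4.61, 8.69 and 6.87 TPM in NSG libraries. Its mean was the highest in WT, at 7.59 ± 1.03 TPM (SD, n = 4), with 3 of the Rag2-/- libraries below every WT library and replicate 3 at 6.75 TPM just above the lowest of them. The log2 fold change was -0.35 ± 0.24 for Rag2-/- against WT (SE; limma adjusted p = 0.432) and -0.42 ± 0.24 for NSG against WT (SE; limma adjusted p = 0.61). Within NSG the libraries spanned 2.99-fold, the widest range of the 8 genes in any host.

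Ptpn2, a phosphatase, measured 67.8, 67.4, 74.5 and 70.3 TPM in WT, 69.2, 76.7, 74.9 and 81.3 TPM in Rag2-/- and 88.6, 91.5, 68.6 and 63.7 TPM in NSG libraries. The highest and the lowest library of all 12 were both from NSG. Its log2 fold change was 0.11 ± 0.11 for Rag2-/- against WT (SE; limma adjusted p = 0.604), -0.03 ± 0.11 for Rag2-/- against NSG (SE; limma adjusted p = 0.936) and 0.14 ± 0.11 for NSG against WT (SE; limma adjusted p = 0.719).

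From library to library the inhibitors tended to opposite levels. NSG replicates 1 and 2 combined the lowest Socs1 with the highest Ptpn2, and NSG replicates 3 and 4 had higher Socs1 and lower Ptpn2. These NSG replicates also lay apart on the first principal component over all genes tested (0.467 and 0.347 against -0.697 and -0.118). The part of that axis in these levels was not tested. Over the 12 libraries the Pearson r of Socs1 and Ptpn2 was -0.76 (permutation p = 0.00424) and the Spearman rho -0.73 (permutation p = 0.00975). Adjusted over the 28 pairs of the 8 genes these were 0.0867 and 0.0546, so the relation did not pass. It weakened to an r of -0.49 without NSG replicates 1 and 2, and was -0.71 for deviations from the host means. Ifngr2 and Irf2 varied in the same direction, with an r of 0.74 and a rho of 0.74 (permutation p = 0.00619 and 0.0077; adjusted 0.0867 and 0.0546), and an r of 0.59 without WT replicate 1 and Rag2-/- replicate 3. No pair passed the adjustment by r or by rho, and 6 had an unadjusted permutation p below 0.05 for r. Interferon gamma's 2 receptor chains were not among them (r = -0.43, rho = -0.37, permutation p = 0.167 and 0.237).

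**Figure D4:**
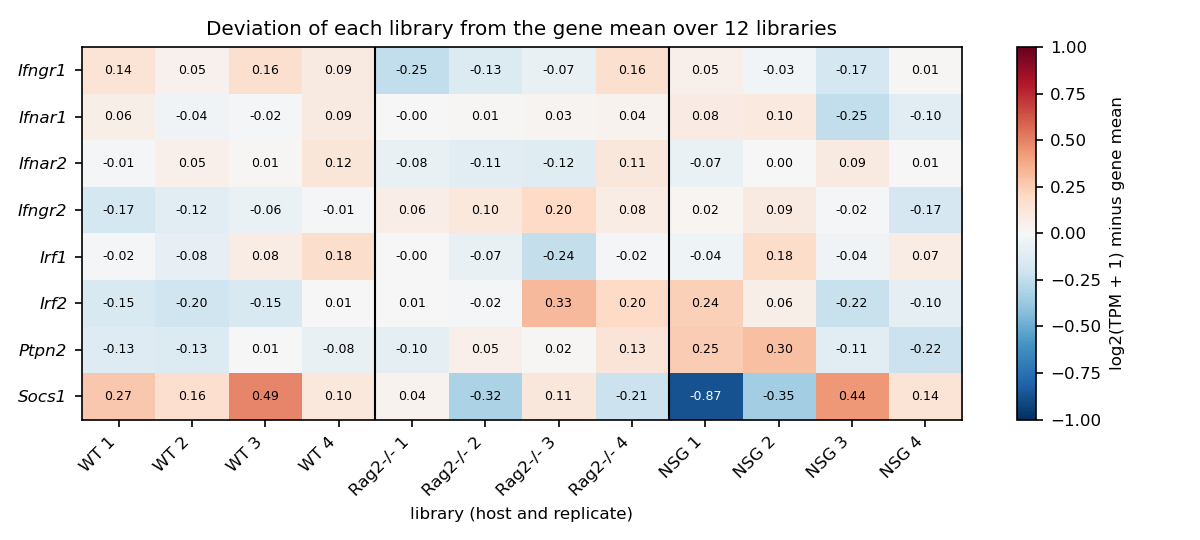
Deviation of each library (columns, by host and replicate) from the mean of each gene (rows) over the 12 libraries, in log2(TPM + 1), with red above and blue below the mean. Socs1 shows the largest deviations, -0.87 in NSG replicate 1 and 0.49 in WT replicate 3, and the other 7 genes stay between -0.25 and 0.33.

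For each gene, the genes whose log2(TPM + 1) was most like it over the 12 libraries were sought among the 11100 genes averaging 5 TPM or more, as a description. Ifngr1 was most like Il22ra2, a decoy receptor for interleukin 22 (r = 0.922), whose gene begins 11.8 kb beyond it on chromosome 10, and then like Hpse (0.903) and Igfbp4 (0.892). Ifnar1 was most like Il10rb (0.929), 59.4 kb away in the receptor cluster, then like Marf1 (0.926) and Timm21 (0.922). Ptpn2 was most like 3 genes of ribosomal proteins, Rpl26 (0.964), Rps26 (0.961) and Rpsa (0.948).

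Apart from Il10rb, none of the most alike genes was among the interferon pathway genes examined below. Ifngr2 was closest to Ndufa10 (0.954), Zdhhc13 (0.94) and Samsn1 (0.939), and Ifnar2 to Amdhd2 (0.911), Zc3h7b (0.858) and Vpreb1 (0.854). Irf1 followed Slc35e3 (0.917), Psd4 (0.841) and Trim27 (0.84), and Irf2 followed Arl8b (0.973), Mllt10 (0.967) and Stag2 (0.96). Socs1 was most like Pex5 (0.946), Mapkapk2 (0.908) and Vps16 (0.908). All of these are values of r over the same 12 libraries, which share hosts and depth.

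The ligands themselves were almost absent from the RNA of the sorted cells. Of 20 interferon genes, 15 were listed at 0 in all 12 libraries, Ifng and Ifnb1 among them, and none reached the level needed for a test. For Ifng a count of 0 allows up to 3 reads, which corresponds to 0.193 to 0.499 TPM depending on the library and covers counting error only. This limit would be higher if mates were counted singly. The most abundant were Ifnk and Ifne, type I interferons of epithelia. Ifnk had 6, 1, 1 and 6 recovered reads in the Rag2-/- libraries, 2, 0, 0 and 4 in NSG and 0 in every WT library, and Ifne had 4 reads in Rag2-/- replicate 3 and 0 elsewhere. Among the NK cell markers, Ncr1 had 2 to 6 reads in each Rag2-/- library and 0 in all others. Gzma had 24, 4, 8 and 16 reads in Rag2-/-, 0 in every WT library and 10 in NSG replicate 2 alone of its host. The read counts of Ifnk, Ifne, Ncr1 and Gzma were not corrected for depth. The deepest libraries were Rag2-/- replicates 4 and 1 and NSG replicate 4. In TPM, Ifnk averaged 0.454 in Rag2-/- and 0.24 in NSG libraries, Ncr1 0.359 and 0, and Gzma 1.49 and 0.416. The part of depth in the counts of 0 was not tested. Klrb1c, Ccl5, Gzmb and Prf1 also had their highest means in Rag2-/-. Klrb1c averaged 0.927 TPM there, 0.41 in WT and 0.272 in NSG libraries, and Ccl5 1.47, 0.179 and 0.347 TPM. Nkg7 was instead lower in Rag2-/- than in WT libraries without overlap (1.79 to 5.19 against 5.20 to 6.71 TPM; limma adjusted p = 0.332). Klrk1 had its highest mean in NSG. Of these markers, all but Nkg7 averaged below 1 TPM and were not tested.

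Downstream of the receptors, 106 further pathway genes were examined in lists, of which 75 were tested. Of these, 2 were called between Rag2-/- and WT (2 of 75, background 1.47%), 0 between Rag2-/- and NSG (background 0.213%) and 0 between NSG and WT (background 0.0%). At an unadjusted p below 0.05 limma counted 21, 15 and 1 of the 75, beside 20.9%, 12.6% and 9.16% of all genes tested. The called genes were Irf5, a transcription factor of myeloid cells, which was higher, and Ly6a, a surface protein inducible by interferon, which was lower. Irf5 measured 20.1, 19.2, 22.1 and 20.9 TPM in WT and 32.3, 30.1, 42.1 and 27.1 TPM in Rag2-/- libraries, a log2 fold change of 0.63 ± 0.13 (SE; limma adjusted p = 0.0309). Ly6a measured 26.8, 50.3, 40.8 and 53.5 TPM in WT and 16.9, 20.1, 21.5 and 24.8 TPM in Rag2-/- libraries, a log2 fold change of -0.97 ± 0.21 (SE; limma adjusted p = 0.0338). In both genes the 4 libraries of each host did not overlap, and in both the NSG values, 17.9 to 26.2 TPM and 23.5 to 37.5 TPM, overlapped WT. Neither call held without any one of WT replicates 2, 3 and 4 or Rag2-/- replicates 1, 2 and 3, where 0 of the pathway genes were called.

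Among the JAK-STAT, negative regulator and lambda receptor genes none was called, and of the other interferon regulatory factors Irf5 alone was. Jak1, the kinase shared by both receptors, measured 112.9 ± 7.28 TPM in WT, 129.2 ± 1.41 TPM in Rag2-/- and 111.7 ± 9.83 TPM in NSG libraries (SD, n = 4 each). Every Rag2-/- library exceeded every library of the other hosts, with log2 fold changes of 0.20 ± 0.06 against WT and 0.21 ± 0.06 against NSG (SE; limma adjusted p = 0.112 and 0.175). The inhibitory phosphatases Ptpn6 and Ptpn1, the most abundant of the other negative regulators, had log2 fold changes of 0.10 and 0.09 against WT (limma adjusted p = 0.456 and 0.47). Irf7 and Irf9, the most abundant of the other interferon regulatory factors, had -0.34 and -0.12 (limma adjusted p = 0.281 and 0.587). Il10rb and Ifnlr1, which form the receptor for interferon lambda, averaged 80.2 and 3.66 TPM over all libraries and had log2 fold changes of 0.02 and 0.22 against WT (limma adjusted p = 0.962 and 0.378).

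Most targets of interferon had lower values in Rag2-/- cells, and all but Ly6a were without a call. Of 26 tested targets of interferon gamma, 7 had higher and 19 lower values than in WT, with a median log2 fold change of -0.23, and against NSG the numbers were also 7 and 19, with a median of -0.19. Of 33 tested type I targets, 4 had higher and 29 lower values in each of these comparisons, with medians of -0.21 and -0.12. Over all genes tested, 54.5% and 53.4% had higher values in Rag2-/- cells, with medians of 0.024 and 0.013. Between NSG and WT the medians were 0.04 and -0.04, with 14 of 26 and 13 of 33 targets at higher values and 51.5% of all genes. The lists share genes, and nothing is called particular to them from these counts.

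The most abundant gamma targets were Psmb10, a subunit of the immunoproteasome, at 239.0 ± 21.8 TPM in WT and 198.3 ± 20.9 TPM in Rag2-/- libraries, and Tap1, a peptide transporter for MHC class I, at 145.6 ± 6.83 and 121.2 ± 15.4 TPM (SD, n = 4 each). Both had log2 fold changes of -0.27 ± 0.09 (SE; limma adjusted p = 0.125 and 0.112). The most abundant type I targets were Bst2 (tetherin), with -0.45 ± 0.15, and Oas1a, with -0.26 ± 0.09 (SE; limma adjusted p = 0.112 for each). For Oas1a the 4 Rag2-/- libraries lay below the 4 WT libraries, and for the other 3 genes the hosts overlapped. The summed TPM of the type I list was 1840.1, 2328.0, 1895.2 and 2583.7 in Rag2-/- replicates 1 to 4 and 2182.7 to 2830.7 in WT. Rag2-/- replicate 4, with the highest Ifngr1 and Ifnar2 of its host, thus also had the highest sum of these targets in it, and the relation was not tested.

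**Figure D5:**
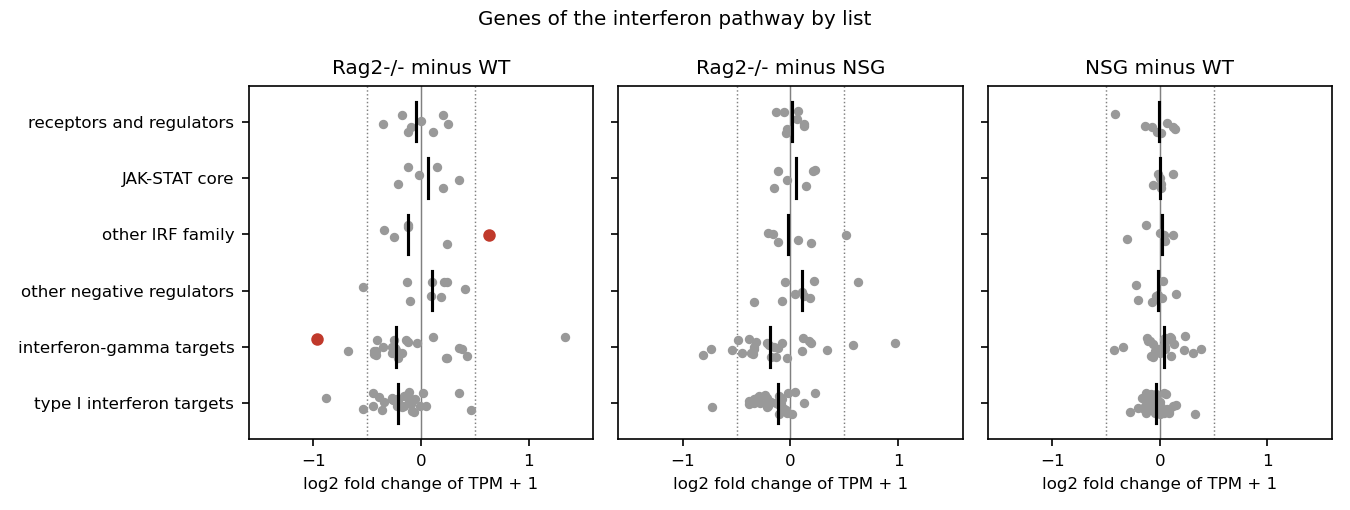
Log2 fold change of TPM + 1 (horizontal axes) of each tested gene of the interferon pathway by list, with black bars for the median of a list, dotted lines at -0.5 and 0.5 and red points for called genes. The 8 receptor and regulator genes lie between -0.35 and 0.25 for Rag2-/- minus WT, the medians of both target lists lie below 0 there (-0.23 and -0.21), and the red points are Irf5 (0.63) and Ly6a (-0.97).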

How the data were processed

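RNA-seq libraries of GFP+ leukemia cells were compared between hosts (WT, Rag2-/- and NSG; 4 of each). Reads from both ends had been aligned by the authors to mm10 using HISAT2 on Galaxy, and the raw gene counts obtained there were turned into the deposited TPM values, with every library in its own column and no filter applied; the counting tool, annotation and gene lengths are not given in the sources used here. Groups and replicate numbers followed the labels. GENCODE M21 gave symbols and exon lengths for 55141 of the 55401 gene IDs. The 8 genes and the gene lists were chosen with earlier results of these data known.

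A single limma model (version 3.58.1, R 4.3.3; eBayes with a trend, no covariate) of log2(TPM + 1) covered the 12 libraries, a scale that understates changes of low genes such as Socs1. Testing was limited to the 15026 genes that averaged 1 TPM or more, and p-values were adjusted by the Benjamini-Hochberg method over them in each comparison. Ratios were compared by exact two-sided permutation, and correlations by 100000 permutations, in Python 3.11.15 with scipy 1.17.1, numpy 2.4.6 and pandas 2.3.3, and figures were drawn with matplotlib 3.10.9. Tested on simulated data for Rag2-/- against WT, with 200 of 15026 genes changed, the fit recovered 87% of 2-fold and 99% of 4-fold changes and called 8 unchanged genes. The changed genes were not drawn from the lowest levels, and noise was drawn independently for each gene. Changes below 2-fold were not simulated, so these rates do not apply to the smaller differences of the 8 genes.

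Since the authors' TPM values came from whole reads, reads were recovered by scaling TPM times exon length. Of the values under 20 reads, 98.7% to 99.0% lay within 0.05 of a whole number, and 67.1% of the values of 1 to 20 reads were even, so mates may have been counted singly and the depth in fragments may be lower. In units of 1000000 reads, median depth was 16.9 in WT, 28.4 in Rag2-/- and 20.1 in NSG libraries. Genes named besides the 8 were those called in a pathway list, the 2 most abundant of each list and the 3 most alike to each gene; Ifnb1 and the marker genes were named after their values were seen, to describe the cells. Alternatives were a pseudocount of 0.1, other filters, quantile and median-ratio scaling, no trend, a replicate block, the 8 libraries of a comparison alone, no fold limit and each library left out in turn. Voom on the recovered reads and the ratios were added after seeing the data.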

Additional observations from a re-analysis of the deposited data

How the results depend on the processing

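No alternative called any of the 8 receptor and regulator genes in any comparison or in the F test, over 504 values of their 24 log2 fold changes. Of these, 16 changed sign, the largest of them to -0.17 (Socs1). With median-ratio scaling Irf1 was -0.000385 for NSG against WT. The others came with 1 library left out. For Rag2-/- against WT, Ifnar1 ranged from -0.03 to 0.02 (positive on leaving out Rag2-/- replicate 1, WT replicate 1 or WT replicate 4). For Rag2-/- against NSG, Ifngr1 ranged from -0.12 to 0.02 (above 0 without Rag2-/- replicate 1), Ifnar1 from -0.01 to 0.11 (below 0 without NSG replicate 3), Socs1 from -0.17 to 0.27 (below 0 without Rag2-/- replicate 3 or NSG replicate 1) and Ptpn2 from -0.12 to 0.05 (above 0 without Rag2-/- replicate 1 or NSG replicate 1 or 2). For NSG against WT, Ifnar1 ranged from -0.11 to 0.00134 (above 0 without NSG replicate 3) and Irf1 from -0.04 to 0.05 (below 0 without WT replicate 1 or 2 or NSG replicate 2 or 4), and the log2 ratio of Ifnar2 to Ifnar1 from -0.06 to 0.10 (below 0 without NSG replicate 3).

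The background counts moved more, and the cause was not tested. Over all genes, the 221 called between Rag2-/- and WT became 114 with all genes above 0 tested, 355 with the 8 libraries alone and 420 without a fold limit, and 48 to 327 with 1 library left out (48 without WT replicate 2). The 32 between Rag2-/- and NSG became 14 (pseudocount 0.1), 7 (all genes above 0), 19 (quantile), 11 (median ratio), 18 (no trend), 6 (8 libraries alone) and 71 (voom), and 4 to 90 with 1 library left out (90 without Rag2-/- replicate 4, 85 without NSG replicate 3). Between NSG and WT, 2 were called with all genes above 0 tested, and 0 to 2 with 1 library left out. The 2 called pathway genes between Rag2-/- and WT became 0 with all genes above 0 tested, 1 without a trend, 4 with the 8 libraries alone, and 0 to 4 with 1 library left out. Against NSG, leaving out 1 library gave 0 to 2. With 1 library left out, 0 to 1 of the 28 correlations passed (1 without WT replicate 3 or Rag2-/- replicate 3).

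Replicate numbers were shared by the hosts but do not pair the libraries: same-numbered pairs had correlations of -0.091 to 0.032 in their deviations. With the replicate block, 5 genes were called between Rag2-/- and NSG, and the 8 genes stayed at 0 calls.

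With 4 libraries per host, the intervals of Socs1, which had both the fewest reads and the widest spread between NSG libraries, were the widest; which of these set them was not tested.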
